A study of Homo sapiens with 4 samples.

Results

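The glycerol 3-phosphate acyltransferases (GPAT) and acylglycerol phosphate acyltransferases (AGPAT) were followed across 4 arrays of the human colorectal carcinoma line HCT116. All probe sets that the platform annotation assigned to a single symbol among GPAM, GPAT2, GPAT3, GPAT4, AGPAT1, AGPAT2, AGPAT3, AGPAT4 and AGPAT5 were taken, which gave 15 of 54675 probe sets. They covered 8 of the 9 genes, and AGPAT3 was not analysed here because no probe set was assigned to it. The study had set short hairpin RNAs against KSR1, a scaffold protein of the RAF, MEK and ERK kinases, beside control cells. There was 1 array of untransfected HCT116 cells, 1 of cells with a non-targeting hairpin vector (shCTRL), 1 of cells with KSR1 hairpin #1 and 1 of cells with KSR1 hairpin #2. All were grown in the same serum-containing medium. Where 4 values are given for a gene, their order is untransfected, shCTRL, hairpin #1, hairpin #2. The 3 vector-carrying lines had in addition been transfected by lipofection and selected with puromycin, which the untransfected cells had not. Per the labels clones were selected, and the sources used here do not say whether an array holds 1 clone or several. Transfection, selection, clone, culture and array therefore differ together between the untransfected array and each of the others and cannot be told apart. Among the 3 vector-carrying arrays, which share transfection and selection, the same holds for hairpin, clone, culture and array, and there were no replicate arrays.

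GPAT enzymes put the first fatty acyl chain on glycerol 3-phosphate and make lysophosphatidic acid, and AGPAT enzymes add the next chain and make phosphatidic acid. Phosphatidic acid is then either dephosphorylated to diacylglycerol, the precursor of triacylglycerol and of the main membrane phospholipids, or turned into CDP-diacylglycerol for phosphatidylinositol and cardiolipin. GPAM and GPAT2 are the mitochondrial GPAT forms, and GPAT3 and GPAT4 those of the endoplasmic reticulum. Phosphatidic acid and lysophosphatidic acid also act as signalling lipids.

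The family was picked on values of these same arrays, above all the low GPAT3 and AGPAT4 signals of shCTRL cells against untransfected cells. Differences between single arrays are accordingly given as descriptions with no test. GPAT3 and AGPAT4 were the members that differed by at least 1 log2 unit (2-fold) in any pair of arrays. GPAT3 signal was 5.80-fold lower in shCTRL than in untransfected cells and lay between these levels with either KSR1 hairpin. AGPAT4 signal was between 4.86-fold and 5.90-fold lower in all 3 vector-carrying lines than in untransfected cells on its brightest probe set, and between 2.50-fold and 2.75-fold lower on the other. The other 6 genes stayed within 0.87 log2 units over the 4 arrays on every one of their probe sets.

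The promoters of GPAT3 and AGPAT4 are shown because these are the members whose signal dropped together in shCTRL cells. The windows run from 250 bases before to 50 bases after the annotated start and come from RefSeq with build GRCh38.p14, in which 7 of the 9 genes were matched. GPAT3 lies at chr4:83535857-83536156 on the + strand, as the first of its 2 nearly identical windows, and AGPAT4 at chr6:161274012-161274311 on the - strand. Capitals mark matches to 7 motifs searched on both strands.
GPAT3: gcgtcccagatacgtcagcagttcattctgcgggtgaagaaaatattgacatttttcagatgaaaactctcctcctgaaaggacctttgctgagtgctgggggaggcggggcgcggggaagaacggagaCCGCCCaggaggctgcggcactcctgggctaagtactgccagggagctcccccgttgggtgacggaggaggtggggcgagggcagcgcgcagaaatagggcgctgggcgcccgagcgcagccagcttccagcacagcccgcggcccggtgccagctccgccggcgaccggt
AGPAT4: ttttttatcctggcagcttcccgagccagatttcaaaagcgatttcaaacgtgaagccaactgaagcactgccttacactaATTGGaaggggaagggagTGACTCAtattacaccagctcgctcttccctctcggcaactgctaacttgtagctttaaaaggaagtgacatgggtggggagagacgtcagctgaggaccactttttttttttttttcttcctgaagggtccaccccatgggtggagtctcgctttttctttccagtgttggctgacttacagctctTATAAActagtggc

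The motifs were the TATA box TATAAA, the CCAAT box, the E-box CACGTG, the GC box GGGCGG, the ETS-type motif CCGGAAGT, the AP-1-type motif TGANTCA and the nuclear receptor direct repeat DR1. The GPAT3 window held 1 GC box on the reverse strand, starting 121 bases before the start, a motif present in 45.0% of the 35116 promoters of the table. The AGPAT4 window held an AP-1-type match starting 151 bases before the start, a reverse CCAAT 169 bases before it and a TATAAA match 37 bases into the transcript. These motifs were present in 7.71%, 34.6% and 11.5% of all promoters. Of the other member windows, 1 of the 5 of AGPAT1 held TGANTCA. The GC box was also found in windows of GPAT2, AGPAT1, AGPAT2 and GPAM. CCAAT was found in windows of GPAT2, AGPAT1, GPAM and AGPAT3, and TATAAA in windows of AGPAT1. The E-box, the ETS-type motif and DR1, present in 7.26%, 4.14% and 0.0228% of all promoters, were not found in these letters of any member window. The base composition of the printed windows differed, with 65% G and C and 25 CG pairs for GPAT3 against 46.7% and 7 for AGPAT4, beside medians of 58.7% and 14 over all promoters. The matches describe the letters of the reference and no binding was measured.

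The deposited values were linear intensities, 1 per probe set and array, with array medians between 50.7 and 52.0. Differences are given on the scale of log2(intensity + 16), which understates those of dim probe sets. A gene takes its brightest probe set, and 12468 genes whose mean log2 value reached 6.08, the median over all probe sets (an intensity of about 51.7), were analysed, all 8 measured members among them. Levels of different probe sets cannot be compared with each other. KSR1, the targeted gene, was read first and was 33.0% lower than shCTRL with hairpin #1 and 18.9% lower with hairpin #2 on its brightest probe set, while its 3 dim probe sets gave no common direction. Of 10 colorectal epithelial markers 8 were bright enough to be analysed, EPCAM at 7855 to 8119 among them, while CDH17 and LGALS4 were below the median. VIL1 at 56.0 to 62.6 and CDX2 at 79.9 to 131 were the dimmer ones of the analysed markers along with KRT20 and CDX1. Of 7 fibroblast, 6 leukocyte and 5 adipocyte markers, 3, 2 and 2 were. The brightest of these was the fibroblast marker COL1A1 at 372 to 433, and the other 6, DCN, THY1, CD79A, LAPTM5, CIDEC and PLIN1, lay between 47.6 and 91.7. Of those that did not pass, PTPRC, COL3A1, LUM and ADIPOQ lay between 6.65 and 21.0. CD3E at 41.4 to 53.0 and COL1A2 at 40.5 to 51.1 came close to the filter. The summed log2 values of the lists were 86.8 to 90.9 for epithelial, 41.7 to 42.3 for fibroblast, 33.1 to 33.9 for leukocyte and 27.6 to 28.0 for adipocyte markers. The lists hold 10, 7, 6 and 5 genes, so these sums can be read across the arrays but not between lists. RNA was taken from whole cultures, so fewer expressing cells and less RNA per cell cannot be told apart.

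GPAT3, the endoplasmic reticulum GPAT that is known for supplying triacylglycerol synthesis, was measured by 1 probe set. The untransfected array read 979, the shCTRL array 169, and the arrays of KSR1 hairpins #1 and #2 read 507 and 455. The untransfected array was the highest and shCTRL the lowest, and both KSR1 hairpin arrays lay close to each other between them. The log2 differences were -2.43 for shCTRL against untransfected, 1.50 and 1.35 for hairpins #1 and #2 against shCTRL, and -0.93 and -1.08 against untransfected cells. The hairpin arrays differed from each other by -0.15, close to the median absolute difference of 0.13 over all genes for that pair. The probe set carries the _s_at suffix, with which the manufacturer marks probes that match several transcripts, and no further GPAT3 probe set was available to set beside it.

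**Figure D1:**
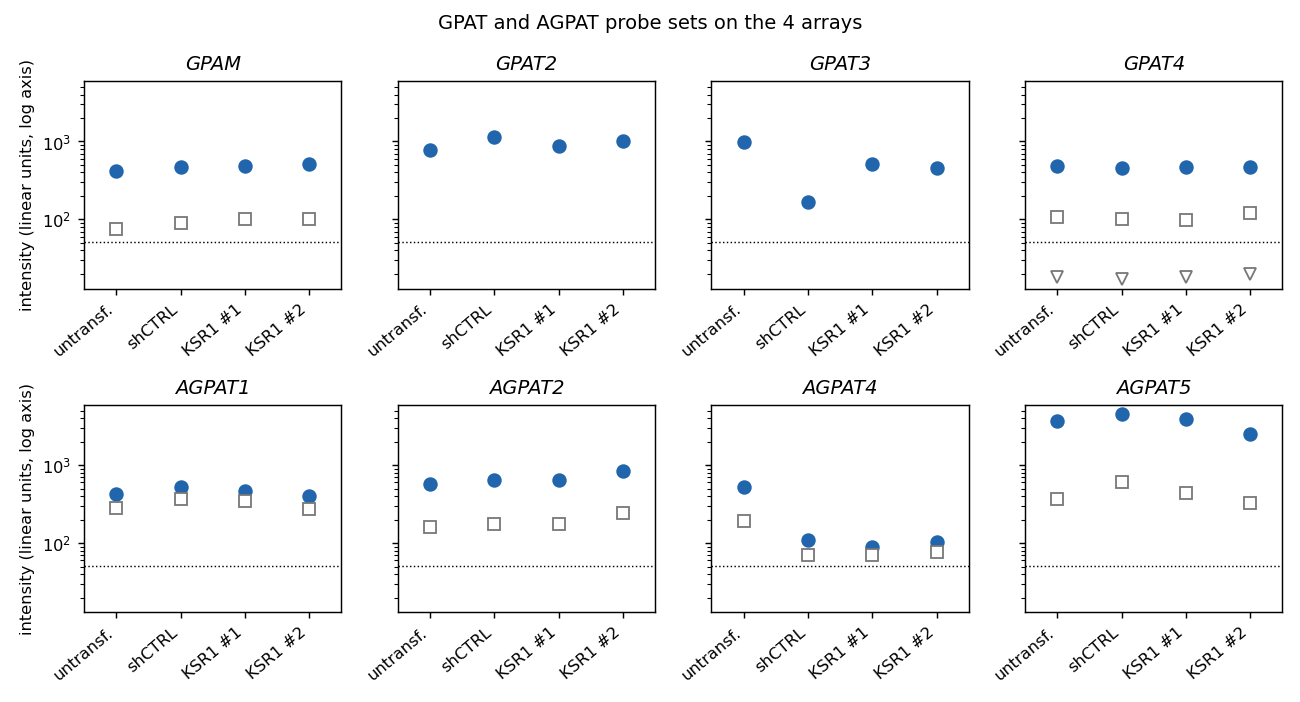
Intensity (log axis, linear units) of every GPAT and AGPAT probe set on the 4 arrays, 1 array per group and no error bars because there were no replicates. Filled circles are the brightest probe set of a gene, open symbols its other probe sets, and the dotted line is the intensity of about 51.7 that corresponds to the filter. GPAT3 drops to 169 in shCTRL, and AGPAT4 is high in untransfected cells alone, at 528 and 194 on its 2 probe sets.

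GPAT4, the close paralog of GPAT3 in the endoplasmic reticulum, showed none of this. On its brightest probe set it was at 480, 461, 470 and 471, a range of 0.06 log2 units. A weaker probe set lay between 97.9 and 122 and the remaining one between 17.1 and 19.95, below the median of every array. All 3 probe sets were thus nearly level across the arrays, with the widest range, 0.28, on the weaker one.

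The mitochondrial GPAT genes differed little. GPAM, which encodes GPAT1 of the outer mitochondrial membrane, was at 417, 464, 491 and 514. Its second probe set was at 76.4, 89.8, 102 and 101. Both probe sets were lowest in untransfected cells and higher with either KSR1 hairpin than in both other arrays, by small amounts: 0.23 and 0.29 log2 units against untransfected and 0.08 and 0.15 against shCTRL on the brighter one. GPAT2, a form otherwise known from testis, was at 787, 1132, 867 and 1012 on its single probe set, lowest in untransfected and highest in shCTRL cells, 0.52 log2 units apart. The RefSeq gene table lists the pseudogenes GPAT2P1 and GPAT2P2, and a contribution of them to this signal was not tested.

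AGPAT4, an acyltransferase that makes phosphatidic acid, was the member with the clearest division between untransfected and vector-carrying cells. Its brightest probe set read 528 on the untransfected array, 109 on that of shCTRL and 89.5 and 105 on those of hairpins #1 and #2. The second probe set was at 194, 71.3, 70.6 and 77.6. On both, untransfected cells stood apart and the 3 vector-carrying lines lay close together, all above the filter intensity. Against untransfected cells the log2 differences were -2.13, -2.37 and -2.17 on the brightest probe set and -1.27, -1.28 and -1.17 on the other. Against shCTRL the KSR1 hairpin arrays differed by -0.24 and -0.05 on the brightest probe set and by -0.01 and 0.10 on the other, so no common direction appeared beyond the untransfected array.

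AGPAT5, a mitochondrial member, was highest in shCTRL and lowest with hairpin #2 on both probe sets. The brighter was at 3684, 4505, 3924 and 2472, and the other at 371, 608, 440 and 326. Hairpin #2 cells were 45.1% and 46.3% below shCTRL on these probe sets, -0.86 and -0.87 log2 units, and hairpin #1 cells 12.9% and 27.7% below. Against untransfected cells hairpin #2 was lower by 32.9% and 12.04%, and hairpin #1 higher by 6.50% and 18.5%. Both differences from shCTRL remained under the 1 log2 unit used here.

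AGPAT2, whose loss causes congenital generalized lipodystrophy, was highest with hairpin #2. Its probe sets were at 575, 652, 648 and 835 and at 162, 177, 177 and 242. The hairpin #2 array stood above untransfected cells by 0.53 and 0.54 log2 units and above shCTRL by 0.35 and 0.42, while shCTRL and hairpin #1 lay within 0.01 of each other on both. AGPAT1, the broadly expressed form of the endoplasmic reticulum, was lowest where AGPAT2 was highest. It was at 425, 523, 462 and 399 on one probe set and at 280, 368, 344 and 273 on the other, highest in shCTRL and lowest with hairpin #2 on both, with ranges of 0.38 and 0.41.

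Probe sets of the same gene showed how far these small differences repeat within the arrays. For AGPAT1, AGPAT2 and AGPAT5 the brightest and the other probe set had the same sign in 6 of 6 pairs of arrays, and after each profile was centred on its mean they differed by at most 0.09, 0.04 and 0.24 log2 units on any array. For GPAM and AGPAT4 the sign was the same in 5 of 6 pairs, with largest differences of 0.06 and 0.74. For GPAT4 it was the same in 4 and 5 of 6 pairs for its weaker probe sets. Probe sets of 1 gene share the hybridized RNA and are not replicates of a condition.

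**Figure D2:**
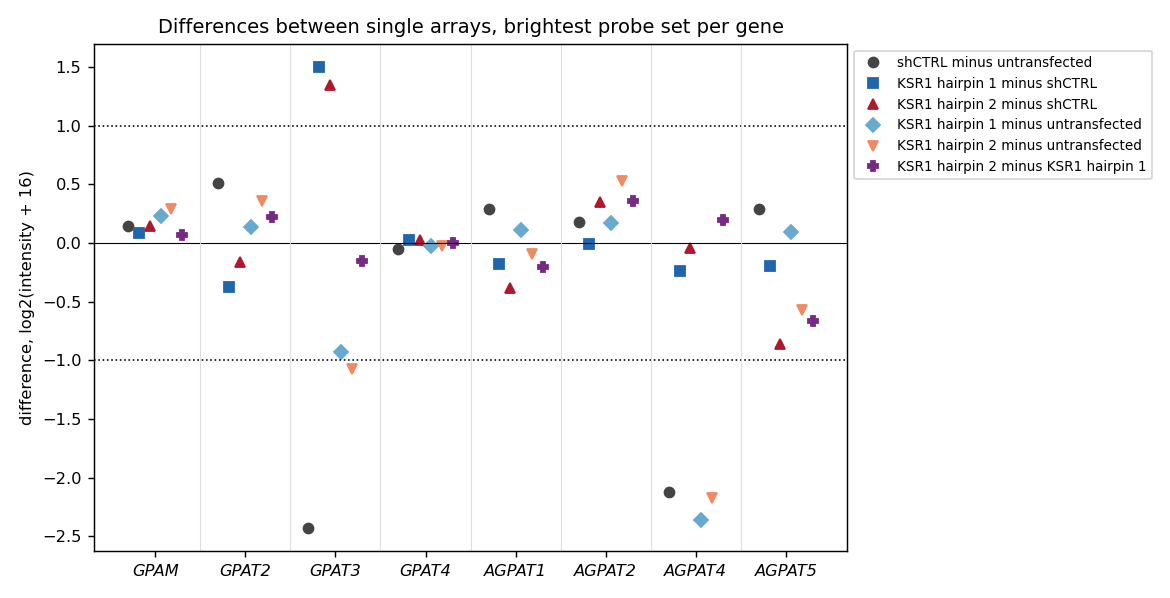
Differences between the 6 pairs of arrays in log2(intensity + 16) for the brightest probe set of each measured member, 1 point per pair, with dotted lines at 1 log2 unit in each direction. Points beyond the lines belong to GPAT3 and AGPAT4, from -2.43 for GPAT3 in shCTRL against untransfected cells to 1.50 for GPAT3 with hairpin #1 against shCTRL.

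Counts of members past 1 log2 unit were set beside the share over all 12468 genes. For shCTRL against untransfected cells, the contrast the choice of the family used, 2 of 8 members were lower and 0 higher, and 0.85% of all genes differed that far, 0.369% as lower. Against shCTRL, 1 member, GPAT3, was higher with hairpin #1, where 0.545% of all genes differed (0.112% as higher), and with hairpin #2, where 1.9% did (0.979% as higher). Against untransfected cells 1 member, AGPAT4, was lower with hairpin #1, where 0.754% of all genes differed (0.505% as lower), and 2, GPAT3 and AGPAT4, with hairpin #2, where 2.28% did (0.987% as lower). Between the KSR1 hairpins 0 members differed that far and 1.72% of all genes did. These contrasts share arrays and are not independent of each other. All 3 vector-carrying arrays were at least 1 log2 unit below untransfected cells for AGPAT4, as for 0.104% of all genes, and 0.144% differed that far in either direction. With GPAT3 at -0.93 for hairpin #1, just short of 1 log2 unit, that count was 2 when the hairpin #1 array was left out. The share of all genes without that array is not given here.

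As a family the members had no common shift. The median difference over the 8 members was 0.16 for shCTRL against untransfected cells, with 5 members above 0 and 3 below, beside 0.02 over all genes. It was -0.09 and -0.01 for hairpins #1 and #2 against shCTRL, and 0.10 and -0.06 against untransfected cells, beside 0.00, 0.01, 0.02 and 0.03 over all genes. The median absolute difference over the members lay between 0.15 and 0.44 for the 6 pairs and that over all genes between 0.13 and 0.17.

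Both KSR1 hairpin arrays were then compared with both other arrays, the contrast with 2 arrays on each side. By limma with Benjamini-Hochberg adjustment over all 12468 genes, 0 of 8 members passed an adjusted p of 0.05 and 0 had an unadjusted p below it, beside 0% and 7.07% of all genes (882 genes, smallest adjusted p 0.318). The spread in this fit is that between the hairpins and between untransfected and shCTRL cells, with 2 residual degrees of freedom, and not that between cultures of 1 kind. For GPAT3 and AGPAT4 the gap between untransfected and shCTRL cells, on which the family was picked, counts as spread here. That they did not pass therefore follows in part from the choice and is no result about them. AGPAT4 had the largest estimate, -1.21 log2 units, with a 95% interval from -3.08 to 0.67 (adjusted p = 0.69 by limma), which became -2.27 when shCTRL was left out and -0.14 when the untransfected array was. GPAT3 had an estimate of 0.21 with an interval from -1.92 to 2.34 (adjusted p = 0.95 by limma), and this estimate became 1.43 when the untransfected array was left out and -1.004 when shCTRL was.

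The remaining members had narrower intervals. They were 0.19 (-0.09 to 0.46) for GPAM, 0.26 (-0.16 to 0.68) for AGPAT2, -0.13 (-0.52 to 0.26) for AGPAT1 and -0.39 (-1.06 to 0.29) for AGPAT5. GPAT2 was at -0.01 (-0.55 to 0.53) and GPAT4 at 0.00 (-0.24 to 0.24). Each side of this fit joins single arrays of unlike cells, so these intervals do not bound an effect of the KSR1 hairpins. Both hairpin arrays lay above both others by any amount for GPAM and below them for AGPAT4, 2 of 8 members, beside 40.9% of all genes (22.5% as higher and 18.4% as lower). For AGPAT4 this held on its brightest probe set and not on the other, where hairpin #2 read 77.6 and shCTRL 71.3. By at least 1 log2 unit 0 members were separated in this way, beside 0.0561% of all genes. Without the untransfected array GPAT3 was, as higher, and without shCTRL AGPAT4 was, as lower. These gaps restate the values on which the family was picked and are no result about these genes. The share of all genes without those arrays is not given here.

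**Figure D3:**
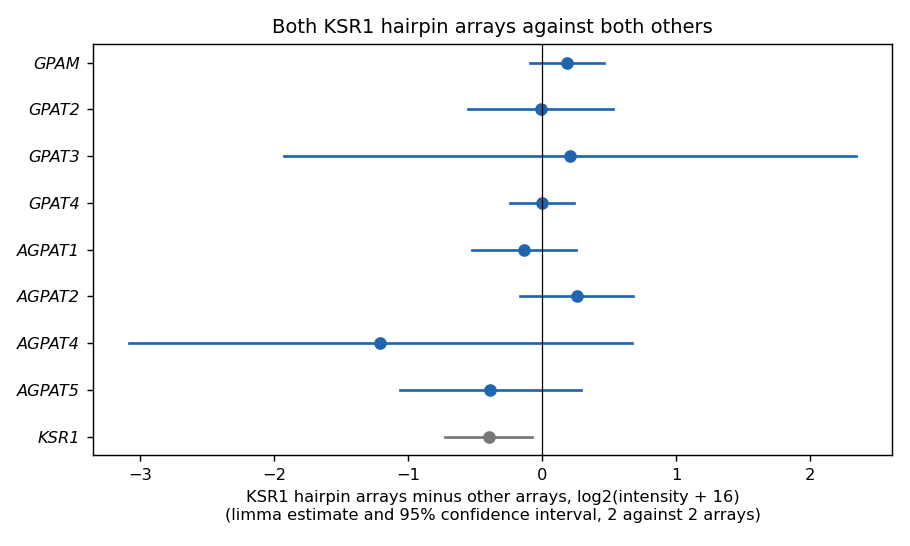
Estimates (points) and 95% confidence intervals (lines) from limma for both KSR1 hairpin arrays minus the untransfected and shCTRL arrays, in log2(intensity + 16), for the 8 measured members and, in grey, KSR1. The intervals of all 8 members include 0, and those of GPAT3 and AGPAT4 are the widest as their untransfected and shCTRL arrays lie furthest apart.

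Other genes of glycerolipid metabolism were read from 7 lists with 80 genes, of which 75 were measured and 67 bright enough to be analysed. Past 1 log2 unit there were 0 higher and 1 lower for shCTRL against untransfected cells (1.49% of the 67, beside 0.85% of all genes). Against shCTRL there were 0 and 0 with hairpin #1 (0%, beside 0.545%), and 1 and 1 with hairpin #2 (2.99%, beside 1.9%). Against untransfected cells there were 0 higher and 2 lower with hairpin #1 (2.99%, beside 0.754%) and 1 higher and 2 lower with hairpin #2 (4.48%, beside 2.28%). Between the hairpins 1 gene was higher and 1 lower with hairpin #2 (2.99%, beside 1.72%). The list medians for shCTRL against untransfected cells ran from -0.13 for lipid droplets and lipolysis to 0.23 for the CDP-diacylglycerol branch. By limma 0 of the 67 passed in either direction.

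Among the enzymes that supply acyl chains, ACSL5, an acyl-CoA synthetase of intestinal epithelium, was at 2549, 2488, 1645 and 547. It was thus low with hairpin #2, by -2.15 log2 units against shCTRL and -2.19 against untransfected cells. Its limma estimate for both hairpins was -1.39 (SE 0.52, adjusted p = 0.67). The glycerol 3-phosphate dehydrogenase gene GPD1 had the narrowest range of that list, 0.15, at 65.0 to 73.9, and 0 of the 7 genes analysed in this list were higher by 1 log2 unit in any pair. The 10 other lysophospholipid acyltransferases analysed, among them the LPCAT and MBOAT enzymes that remodel phospholipids, had 0 genes past 1 log2 unit in any pair, and TAFAZZIN, the cardiolipin-remodelling enzyme, had the narrowest range, 0.10.

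Downstream of phosphatidic acid, PLPP3, a lipid phosphate phosphatase, was at 88.1, 153, 169 and 219. It was the 1 gene of 15 in the list of phosphatidic acid phosphatases and kinases to differ by 1 log2 unit, 1.17 for hairpin #2 against untransfected cells. AGK, the mitochondrial acylglycerol kinase, had a range of 0.07. Of the triacylglycerol genes DGAT1 and DGAT2 were bright enough and 0 of these 2 differed by 1 log2 unit, with DGAT2 at 124, 139, 80.0 and 156. In the CDP-diacylglycerol branch 0 of 7 genes did, and PTPMT1, a phosphatase of cardiolipin synthesis, had a range of 0.17.

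CHPT1, which makes phosphatidylcholine from diacylglycerol, was the 1 gene of the 67 that was lower by 1 log2 unit in shCTRL than in untransfected cells. It was at 730 in untransfected, 243 in shCTRL, 349 with hairpin #1 and 878 with hairpin #2 cells. Its log2 difference was -1.53 for shCTRL against untransfected and 0.50 and 1.79 for the hairpins against shCTRL, so hairpin #2 cells were close to untransfected cells and hairpin #1 cells were not. The epithelial marker KRT20, picked after its values were seen, was also lower in shCTRL and hairpin #1 cells, at 166, 63.7, 52.5 and 275. Its lowest array was that of hairpin #1 and not shCTRL. KRT8 and CDX2 had the array order of KRT20 by smaller amounts, and EPCAM, KRT18, CDH1, VIL1 and CDX1 did not. A part of KRT20 in the CHPT1 values was not tested. PEMT, which makes phosphatidylcholine by methylation, had a range of 0.07. Among lipid droplet genes HILPDA, a hypoxia-inducible inhibitor of the lipase ATGL, was at 2023, 1139, 702 and 682, -1.51 and -1.55 log2 units with the hairpins against untransfected cells and -0.69 and -0.73 against shCTRL. PNPLA2, which encodes ATGL itself, was level, with a range of 0.02 on its brightest probe set.

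**Figure D4:**
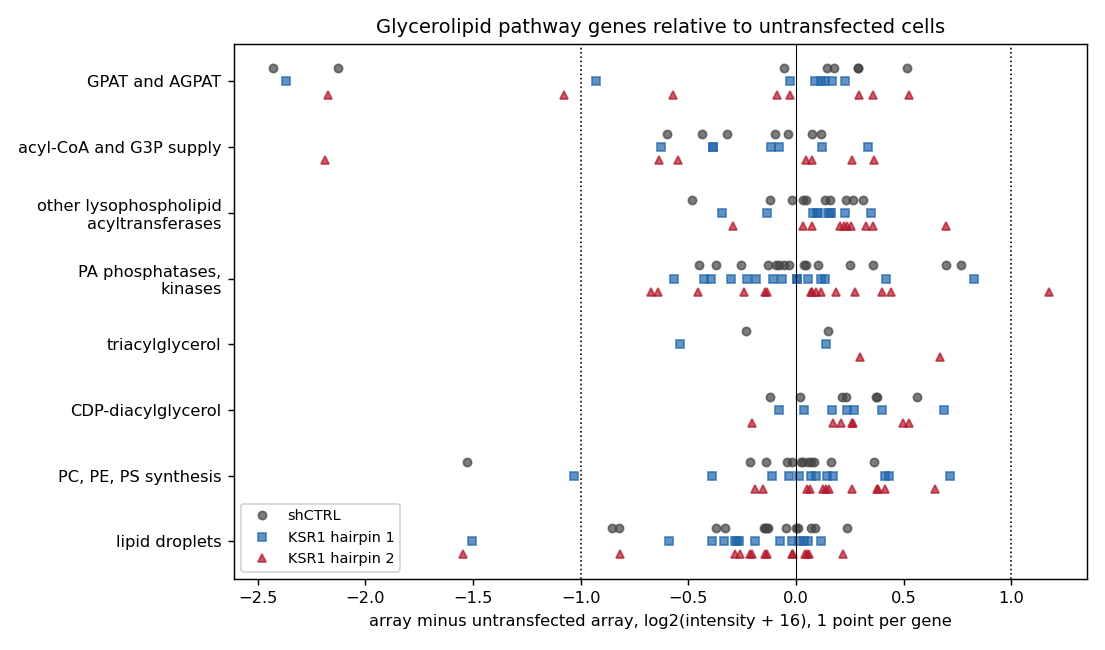
Differences from the untransfected array in log2(intensity + 16), 1 point per gene, for the 8 GPAT and AGPAT genes and for the 67 analysed genes of 7 glycerolipid lists, with dotted lines at 1 log2 unit. Circles are shCTRL, squares KSR1 hairpin #1 and triangles KSR1 hairpin #2. The lowest points are those of GPAT3 and AGPAT4 at -2.43 to -2.13 and of ACSL5 with hairpin #2 at -2.19.

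The genes on the chromosome beside GPAT3 and AGPAT4 were read as well, a choice made after the values were seen. AGPAT4-IT1, a noncoding transcript named for an AGPAT4 intron, was at 390, 102, 94.3 and 92.3. It was thus between 3.84-fold and 4.23-fold lower in the vector-carrying lines. Whether its probe set also detects unspliced AGPAT4 RNA was not tested. MAP3K4, the nearest measured gene on the other side, was at 1263, 1138, 1078 and 1140, at most 0.23 log2 units below untransfected cells. The other measured genes near AGPAT4 were close to or below the filter, with PLG at 46.2 to 59.8, DKFZp451B082 at 44.9 to 54.4, LPA at 8.03 to 9.70 and CAHM at 8.59 to 10.2.

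Among the measured genes near GPAT3, none shared its drop in shCTRL cells. The 3 measured genes before it, HELQ, MRPS18C and ABRAXAS1, differed between shCTRL and untransfected cells by 0.05, -0.05 and 0.17 log2 units. CDS1, the third measured gene after it, which makes CDP-diacylglycerol from phosphatidic acid, differed by 0.23. LINC02994 and NKX6-1 between them were dim, at 11.7 to 13.97 and 36.0 to 43.6.

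**Figure D5:**
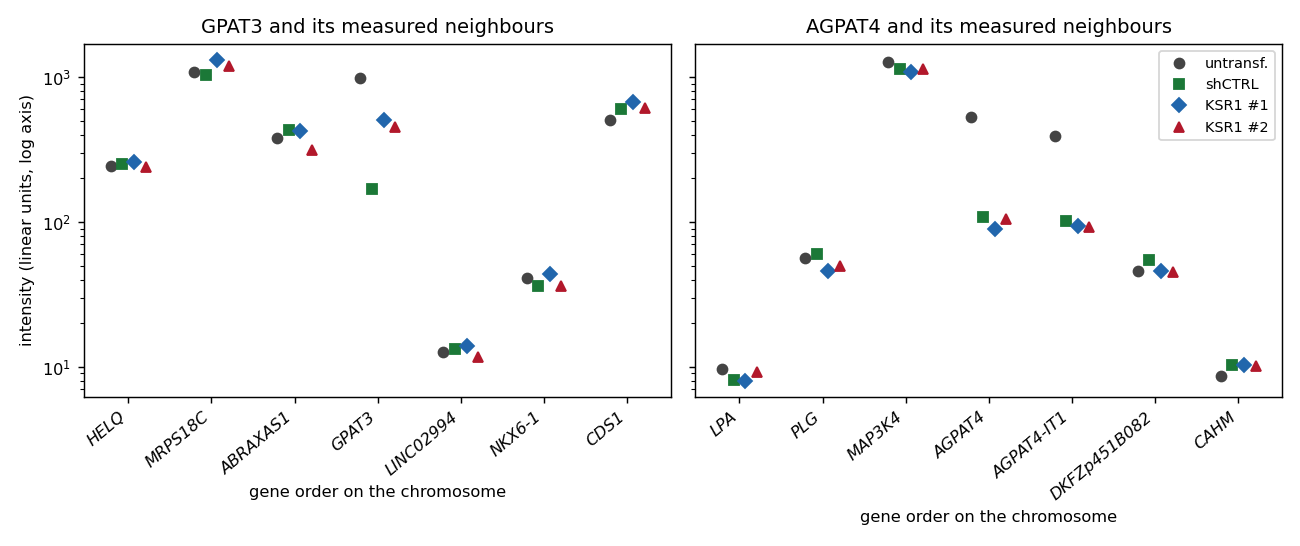
Intensity (log axis, linear units) on the 4 arrays for GPAT3 (left) and AGPAT4 (right) and the 3 nearest measured genes on each side, in chromosomal order and with 1 point per array. AGPAT4 and AGPAT4-IT1 are high in untransfected cells alone, at 528 and 390, while MAP3K4 stays between 1078 and 1263 and the neighbours of GPAT3 do not share its drop to 169.

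Profiles over the 4 arrays were compared among the 483 analysed genes with a range of at least 1 log2 unit (3.87% of 12468), by the root mean square difference after centring each gene on its own mean. The nearest to AGPAT4 were CPM, a carboxypeptidase (0.17), AGPAT4-IT1 (0.18) and UTRN, the dystrophin relative utrophin (0.19). UTRN was at 833 in untransfected cells and 246, 210 and 233 in shCTRL, hairpin #1 and hairpin #2 cells, and CPM at 331 against 42.2, 45.3 and 47.5, the latter 3 below the array medians. The nearest to GPAT3 were more distant, SEC24D, a COPII coat component (0.42), ARHGAP26 (0.43) and the autophagy conjugation gene ATG12 (0.44). SEC24D was at 328, 129, 255 and 241, the order of GPAT3 with a smaller range. Likeness over 4 arrays is a description and carries no test.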

How the data were processed

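Messenger RNA of 4 HCT116 cultures was measured on 1-colour Affymetrix arrays. The authors deposited intensity values on a linear scale, 1 per probe set and array; how the authors corrected background, summarised probes and normalized is not given in these sources. Array medians were close, so values were used as deposited, as log2(intensity + 16). No sequencing depth applies to arrays, and their number limits the precision. Genes were named from the platform annotation (41097 probe sets with 1 symbol, 1801 with several, 11777 with none); 41043 matched the RefSeq gene table of GRCh38.p14 and 0 symbols changed. A gene took its brightest probe set, and genes whose mean reached 6.08 were analysed.

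Between single arrays a difference of 1 log2 unit was counted, with no p-value. limma 3.58.1 (R 4.3.3, lmFit and eBayes) set both KSR1 hairpin arrays against both others, at a Benjamini-Hochberg adjusted p of 0.05. On simulated arrays the fit was checked for recovering the mean size of known shifts. Calls past the adjusted p were checked there at low noise alone, which does not show what the fit can detect in these arrays. Members and lists were chosen with earlier results of these data known. Named were all members, KSR1, the up to 4 listed genes per list with the widest range of at least 1 log2 unit and the narrowest one, and the 3 genes with the nearest profile to a member of that range; others were chosen after their values were seen. Alternatives were pseudocounts of 1 and 64, quantile normalization, median centring, other probe set summaries, other filters, a trend in the limma prior, and leaving out each array.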

Additional observations from a re-analysis of the deposited data

How the results depend on the processing

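With genes kept only from the 75th percentile of probe sets upward, AGPAT4 was too dim to be counted, and members past 1 log2 unit against untransfected cells were then 1 for shCTRL, 0 for the first and 1 for the second KSR1 hairpin, and 0 for all 3 vector-carrying arrays. Leaving out 1 array at a time gave 1 to 2 members with all vector arrays 1 log2 unit from untransfected cells, and 0 to 1 with the KSR1 hairpin arrays 1 log2 unit beyond the others. Shares over all genes are not given for the 75th percentile filter or with an array left out. These member counts therefore have no background beside them. Under pseudocounts of 1 and 64, quantile normalization, median centring, the mean over probe sets, the second-brightest probe set (added after seeing the data) and no filter, these counts equalled those given above. Of 378 single-pair differences recomputed, 9 had another sign, each at most 0.06 log2 units as first given, and 26 moved by more than the median absolute difference over all genes, among them AGPAT4 in shCTRL against untransfected cells at -1.27 on its second probe set. Part of the 378 could not move. Filters change only which genes are kept, and GPAT2 and GPAT3, with 1 probe set each, are untouched by other probe set summaries. By limma 0 members and 0 genes passed under the alternatives that kept every array. The limma fit gave an unadjusted p under 0.05 for 570 of 7974 genes with the 75th percentile filter and for 1534 of 19775 with no filter. No paired analysis was possible because each group held 1 array. The number of arrays and signals near the median of about 51.7 limit what can be told, and the lone array of a group has no measured spread.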

Other observations

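Several lipid genes outside the naming rule, chosen after their values were seen, are given as values. PLIN2, the main lipid droplet coat protein of most cells, was at 1007 in untransfected, 798 in shCTRL, 665 in hairpin #1 and 565 in hairpin #2 cells. MGLL, the monoacylglycerol lipase, was lowest in shCTRL cells, at 89.4, against 175 in untransfected, 135 in hairpin #1 and 141 in hairpin #2 cells. DGAT1, which makes triacylglycerol, was highest in hairpin #2 cells, at 514, against 317, 267 and 351 in untransfected, shCTRL and hairpin #1 cells. TAMM41, a mitochondrial CDP-diacylglycerol synthase, was lowest in untransfected cells, at 110, against 169, 186 and 165 in shCTRL, hairpin #1 and hairpin #2 cells. None of the differences of these 4 genes reached 1 log2 unit in any pair of arrays.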
